A study of Mus musculus with 4 samples.

Results

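The genes described here encode 10 subunits of the Polycomb complexes, chosen by name from the 45232 gene rows of each count file. They are Ezh1, Ezh2, Eed and Suz12 of Polycomb repressive complex 2 (PRC2) and Bmi1, Rnf2, Ring1, Cbx2, Cbx7 and Cbx8 of Polycomb repressive complex 1 (PRC1). All 10 were measured, and all 10 passed the filter on low counts. RNA came from mouse LSK cells, the fraction without lineage markers and with Kit and Sca-1 on its surface, which holds blood stem cells and their first descendants. The cells descended from GFP-positive long-term stem cells that carried a knockdown of miR-99 (miR-99 KD) or a scrambled control (Scr), and were sorted as GFP-positive cells 3 months after their transplantation. Each group is described as 2 mice and has 2 libraries, which are numbered below as Scr 1 and 2 and knockdown 1 and 2, and transplantation and GFP are common to both groups. No label ties a library to 1 mouse, so p-values measure the spread between libraries. The labels used here name no age, strain, construct or promoter. The question is which transcripts differ in level between LSK cells of both groups.

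Polycomb complexes keep developmental genes silent. PRC2 methylates a lysine of histone H3 through its catalytic subunit, EZH1 or EZH2, held together by EED and SUZ12. Canonical PRC1 reads that mark through a CBX protein and adds ubiquitin to histone H2A through RNF2 or RING1, helped by a partner such as BMI1. In mouse blood stem cells BMI1 is needed for self-renewal, EZH1 has been tied to stem cell maintenance, and CBX7 favours self-renewal while CBX2 and CBX8 favour differentiation.

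The microRNAs of the miR-99 family act by pairing of their seed, bases 2 to 8, with target transcripts. Their mature sequences are shown because the seed sets the letters that were searched for in the Polycomb transcripts. The 3 sequences below are from RefSeq on GRCm38.p6, with the seed in capitals, at chr16:77598940-77598961, chr17:17830194-17830215 and chr9:41531437-41531458, each on the plus strand.
miR-99a-5p: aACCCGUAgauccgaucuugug
miR-99b-5p: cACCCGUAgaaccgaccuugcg
miR-100-5p: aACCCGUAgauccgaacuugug
All 3 share the seed ACCCGUA. The libraries do not measure mature microRNAs and give no check of the lowered miR-99.

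The 3′ untranslated regions of the 10 genes, 283 to 2509 bases long in GENCODE M21, held no match to the full seed (TACGGGT) and none to its 6-letter core followed by A (ACGGGTA). Among tested genes with such a region of at least 50 bases, 2.34% held one of these 2 words. The 6-letter core ACGGGT alone stood once, in Ezh1 on chromosome 11, minus strand, and in 6.86% of tested genes. The site is shown because it is the only one among the 10, with the core in capitals.
Ezh1: tatttttaatgACGGGTttcaccc
Of 43 other Polycomb genes and targets, Kdm6b, Asxl2 and Cbx6 held a 7-letter word. A match is a description of the letters and says nothing about binding.

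Gene counts per library ran from 27295197 to 32350590. Levels are given as CPM (counts scaled to a common library size, with TMM factors). The sort marker Kit had 1149 CPM in Scr 1, 1280 in Scr 2, 670 in knockdown 1 and 774 in knockdown 2, a log2 difference of -0.75 ± 0.15 with an edgeR adjusted p of 0.213 and a DESeq2 adjusted p of 2.92e-04. Ly6a, which encodes the sort marker Sca-1, had 46.5, 22.8, 12.4 and 22.3 CPM in the same order, with a DESeq2 adjusted p of 0.176. Both were lower in both knockdown libraries than in both Scr libraries, and their part in the values of the members was not tested. Markers of other cells differed between libraries of 1 group. The 12 neutrophil markers summed to 29450 CPM in knockdown 1 and to 5310 to 8414 CPM in the other libraries, and the 11 B cell precursor markers to 325 CPM in knockdown 1 and 44.5 to 98.2 CPM in the others. The 7 T cell markers summed to 11.4 to 34.4 CPM, of which Lck gave 10.7 to 32.7 CPM. Cd3e, which defines T cells, was at 0 in Scr 2 and knockdown 2, 0.149 CPM in Scr 1 and 1.44 CPM in knockdown 1. The 8 macrophage markers summed to 144 to 343 CPM. Summed over 12 genes, stem cell markers stood at 2572 and 2505 CPM in Scr against 1121 and 1290 CPM in the knockdown, and 12 erythroid markers at 9586 and 9202 against 13790 and 16170 CPM.

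Genes were called by edgeR's quasi-likelihood method, the main test, at a Benjamini-Hochberg adjusted p of 0.05 over 15320 genes. It called 0 of the 10 members and 0% of all genes. At an unadjusted p under 0.05 it counted 2 members, Cbx7 lower and Eed higher, against 15.6% of all genes tested, 9.63% lower and 5.97% higher. DESeq2 called 1 member, Cbx7, lower in the knockdown. It called 5.79% of all genes, 4.13% lower and 1.66% higher. In Ezh1, Ring1 and Cbx7 both knockdown libraries lay below both Scr libraries, as they did in 26% of all genes. In Ezh2 and Eed both lay above, as in 24.5% of all genes. The other 5 members overlapped. Thus 5 of 10 members did not overlap, close to the 50.5% of all genes. The median log2 difference was -0.13 over the members and 0.02 over all genes tested.

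**Figure D1:**
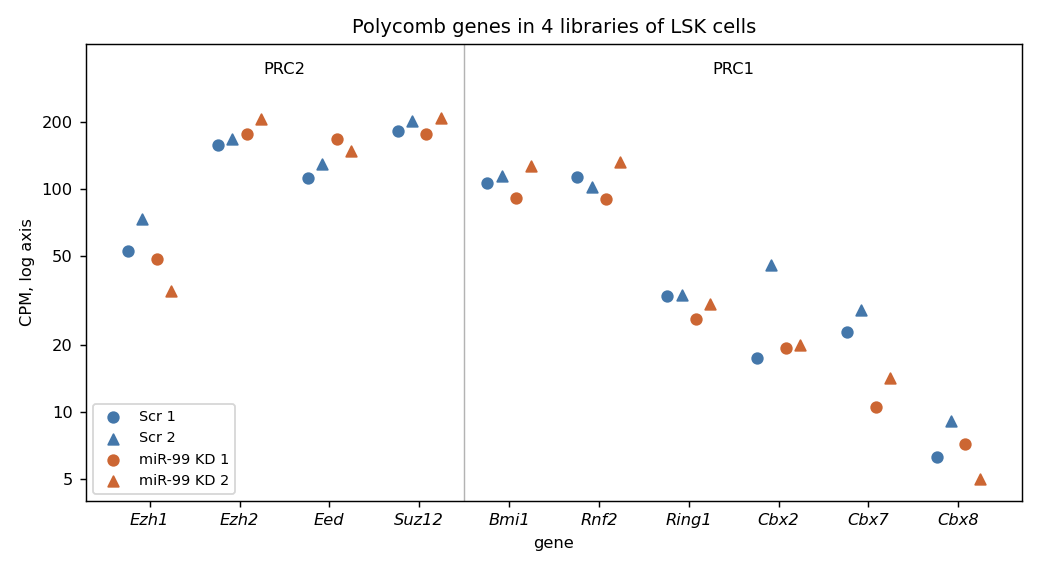
CPM (log axis) of the 10 genes in each library, Scr in blue and the knockdown in orange, circles for replicate 1 and triangles for replicate 2. Cbx7 and Ezh1 are lower in both knockdown libraries than in both Scr libraries, and Cbx2 is set apart by Scr 2 alone.

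Of the catalytic subunits of PRC2, Ezh1 was lower and Ezh2 higher in both knockdown libraries than in both Scr libraries. Over all 4 libraries neither was called by edgeR or DESeq2. Ezh1 (ENSMUSG00000006920), the methyltransferase subunit known from resting cells, stood at 52.8 CPM in Scr 1, 73.8 in Scr 2, 48.7 in knockdown 1 and 34.9 in knockdown 2. The groups did not overlap, but the gap between Scr 1 and knockdown 1 was small beside the spread within each group. The means were 63.3 ± 15 CPM in Scr and 41.8 ± 9.8 in the knockdown (SD, n = 2), a log2 difference of -0.60 ± 0.26 (SE), with an edgeR adjusted p of 0.346 and a DESeq2 adjusted p of 0.23. The difference was -0.86 without knockdown 1, where DESeq2 called Ezh1 from a knockdown group of 1 library, and -0.35 without Scr 2.

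Ezh2 (ENSMUSG00000029687), the methyltransferase subunit that dominates in dividing cells, stood at 158 CPM in Scr 1, 169 in Scr 2, 177 in knockdown 1 and 208 in knockdown 2. Both knockdown libraries were above both Scr libraries. The means were 164 ± 7.7 and 192 ± 22 CPM, a log2 difference of 0.23 ± 0.14 with an edgeR adjusted p of 0.473. The difference was 0.11 without knockdown 2 and 0.34 without knockdown 1. A list of 18 DNA replication genes summed to 6740 and 7534 CPM in Scr against 7515 and 7959 CPM in the knockdown, which overlapped. In 7 of these 18 genes both knockdown libraries lay above both Scr libraries and in 0 below, beside 24.5% and 26% of all genes, and 11 genes overlapped. At an unadjusted p under 0.05 edgeR counted 3 as higher and 0 as lower, beside 5.97% and 9.63% of all genes. DESeq2 called 1 as higher and 0 as lower, beside 1.66% and 4.13%. The part of this list in the Ezh2 values was not tested.

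The promoters of Ezh1 and Ezh2, the alternative enzymes of PRC2, and of Cbx7, the member with the smallest p, are shown. Each runs from 250 bases before to 50 after the RefSeq start on GRCm38.p6, read on the minus strand, at chr11:101226414-101226713, chr6:47594981-47595280 and chr15:79932597-79932896. Capitals mark the E2F words TTTCGCGC and TTTGGCGC, searched on both strands.
Ezh1: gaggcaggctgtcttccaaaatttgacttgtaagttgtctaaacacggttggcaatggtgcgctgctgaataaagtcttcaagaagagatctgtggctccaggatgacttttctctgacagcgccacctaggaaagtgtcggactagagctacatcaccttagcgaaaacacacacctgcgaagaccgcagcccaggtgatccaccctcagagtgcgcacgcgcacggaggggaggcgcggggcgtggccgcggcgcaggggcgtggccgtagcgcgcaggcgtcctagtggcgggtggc
Ezh2: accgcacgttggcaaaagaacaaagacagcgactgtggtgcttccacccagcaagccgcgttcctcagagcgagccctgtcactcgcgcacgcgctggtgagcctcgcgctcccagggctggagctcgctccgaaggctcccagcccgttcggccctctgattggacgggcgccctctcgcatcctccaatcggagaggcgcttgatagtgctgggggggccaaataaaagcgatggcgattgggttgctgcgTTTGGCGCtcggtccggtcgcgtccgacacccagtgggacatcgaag
Cbx7: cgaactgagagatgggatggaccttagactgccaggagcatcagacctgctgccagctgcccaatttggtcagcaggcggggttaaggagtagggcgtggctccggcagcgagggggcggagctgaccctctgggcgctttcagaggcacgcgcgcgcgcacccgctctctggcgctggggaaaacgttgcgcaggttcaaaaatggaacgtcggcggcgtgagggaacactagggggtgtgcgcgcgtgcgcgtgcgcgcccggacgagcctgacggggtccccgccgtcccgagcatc
Of the 9 members with an entry, Ezh2 alone held a word, 1 copy of TTTGGCGC, against 0.813% of 32851 promoters. The 9 windows had a GC content of 54.7% to 74% and 17 to 41 CpG pairs, where the median of all promoters was 52.7% and 7.

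Within a library the balance of both enzymes does not depend on how libraries are scaled. Ezh1 took 25.03% of the Ezh1 and Ezh2 counts in Scr 1 (95% Wilson interval 24.03 to 26.0), 30.4% in Scr 2 (29.3 to 31.5), 21.6% in knockdown 1 (20.6 to 22.7) and 14.4% in knockdown 2 (13.6 to 15.3). The intervals cover only the counting error of reads, taken as independent although the RNA was amplified, and none overlaps another. Both knockdown libraries were below both Scr libraries. This order, and the permutation p given below, follow from Ezh1 being lower and Ezh2 higher in both, so they add no separate evidence. The libraries of each group differed from each other by more than this counting error. Per kilobase of exon, the log2 ratio of Ezh1 to Ezh2 was -2.51 ± 0.27 in Scr and -3.33 ± 0.50 in the knockdown (SD, n = 2). The difference was -0.83, with an exact two-sided permutation p of 0.3333, the smallest that 2 libraries against 2 allow. It was -1.18 without knockdown 1 and -0.47 without knockdown 2. Summed, both enzymes stood at 211 and 243 CPM in Scr against 226 and 243 CPM in the knockdown, which overlapped.

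**Figure D2:**
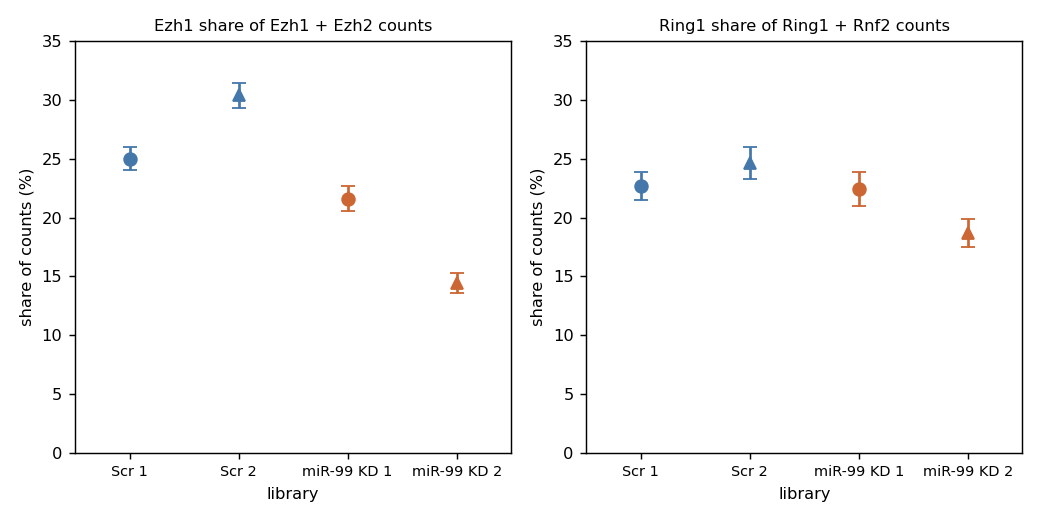
Share of counts in percent, per library, of Ezh1 among Ezh1 and Ezh2 (left) and of Ring1 among Ring1 and Rnf2 (right), with 95% Wilson intervals that cover counting error only. Ezh1 is at 25.03% and 30.4% in Scr against 21.6% and 14.4% in the knockdown, and Ring1 at 22.7% and 24.6% against 22.4% and 18.7%.

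The scaffold subunits of PRC2 did not follow one pattern. Eed (ENSMUSG00000030619), which binds the methyl mark and activates the enzyme, had 113 CPM in Scr 1, 131 in Scr 2, 169 in knockdown 1 and 148 in knockdown 2. Its groups did not overlap. The log2 difference was 0.38 ± 0.15, with an edgeR p of 0.0493, an adjusted p of 0.319 and a DESeq2 adjusted p of 0.227. The unadjusted p was 0.0544 with RLE scaling, 0.0538 with upper-quartile scaling, 0.0973 with library totals alone and 0.0914 with the replicate block. Without Scr 1 it was 0.318, without Scr 2 0.0989, without knockdown 1 0.143 and without knockdown 2 0.0271 in edgeR. Suz12 (ENSMUSG00000017548), which holds the core together, stood at 183, 203, 178 and 210 CPM in the same order. Its groups overlapped, with means of 193 ± 14 and 194 ± 23 CPM and a log2 difference of 0.01 ± 0.15.

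In the ring finger core of PRC1, Bmi1 and Rnf2 overlapped between the groups and Ring1 was lower in both knockdown libraries, without passing the test. Bmi1 (ENSMUSG00000026739) stood at 107 and 115 CPM in Scr and at 91.1 and 128 CPM in the knockdown, so that the Scr values lay between the knockdown values. The log2 difference was -0.02 ± 0.20. Of the 50-base words in Bmi1 transcripts, 16.7% also occur in another annotated gene, so its counts are less certain than those of the other members, where at most 0.307% do. Bmi1 made up 98.6% to 98.9% of the counts of Bmi1 and its paralog Pcgf2, which was at 1.10 to 1.88 CPM.

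Rnf2 (ENSMUSG00000026484), the main ubiquitin ligase of PRC1, had the same shape. It stood at 114 and 103 CPM in Scr and at 90.4 and 133 CPM in the knockdown, a log2 difference of 0.04 ± 0.21. Bmi1 and Rnf2 were both lowest in knockdown 1 and highest in knockdown 2. Ring1 (ENSMUSG00000024325), the second ligase, stood at 33.3 and 33.7 CPM in Scr and at 26.1 and 30.5 CPM in the knockdown. Its groups did not overlap, and its log2 difference of -0.24 ± 0.18 had an edgeR adjusted p of 0.542. It was -0.14 without knockdown 1 and -0.36 without knockdown 2. Ring1 took 22.7% and 24.6% of the Ring1 and Rnf2 counts in Scr and 22.4% and 18.7% in the knockdown. The Wilson intervals of Scr 1 and knockdown 1 overlapped, at 21.5 to 23.9 and 21.0 to 23.9. The log2 ratio of Ring1 to Rnf2 differed by -0.26 between the groups, with an exact permutation p of 0.3333. It differed by -0.43 without knockdown 1 and by -0.099 without knockdown 2.

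Among the 3 CBX members, Cbx7 had the log2 difference farthest from 0. Cbx7 (ENSMUSG00000053411) had 767 and 836 counts in Scr 1 and 2 and 277 and 379 counts in knockdown 1 and 2, or 22.9, 28.7, 10.5 and 14.3 CPM. Both knockdown libraries were well below both Scr libraries. The means were 25.8 ± 4.1 CPM in Scr and 12.4 ± 2.7 in the knockdown (SD, n = 2), a ratio of 0.480 and a log2 difference of -1.06 ± 0.26 (SE). The edgeR p was 0.0085 and its adjusted p 0.227, so Cbx7 did not pass the main test, while the DESeq2 adjusted p was 0.0186. DESeq2 did not call Cbx7 in every fit that left out 1 library. Such a fit leaves 1 library in a group, and the share of all genes called also changed with the library left out. With the replicate number as a block the DESeq2 adjusted p was 0.0893, where 2.55% of all genes were called. The log2 difference stayed between -1.30 and -0.86 when each library was left out.

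Kit, Ly6a and the summed stem cell markers given above were lower and the summed erythroid markers higher in the same 2 libraries in which Cbx7 was lower. Their part in the Cbx7 values was not tested. In bulk RNA fewer cells that hold a transcript and less of it per cell cannot be told apart.

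Cbx2 (ENSMUSG00000025577) was set by 1 library. It stood at 17.5 CPM in Scr 1, 45.9 in Scr 2, 19.4 in knockdown 1 and 20.03 in knockdown 2. Scr 1 was the lowest of the 4 and Scr 2 the highest. The log2 difference of -0.68 ± 0.46, with an edgeR adjusted p of 0.508, turned to 0.16 without Scr 2 and was -1.25 without Scr 1. Cbx8 (ENSMUSG00000025578), the least abundant member, had 210 and 265 counts in Scr and 189 and 133 in the knockdown, or 6.28, 9.10, 7.16 and 5.01 CPM. Its groups overlapped, with a log2 difference of -0.34 ± 0.35. The difference was -0.057 without Scr 2, -0.60 without Scr 1, -0.62 without knockdown 1 and -0.099 without knockdown 2.

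The log2 ratio of Cbx7 to Cbx8 was 1.83 ± 0.15 in Scr and 1.10 ± 0.68 in the knockdown, with an exact permutation p of 0.3333. The difference of -0.73 was -0.25 without knockdown 1 and -1.21 without knockdown 2. The ratio of Cbx7 to Cbx2 overlapped between the groups, with p = 0.667 by the same exact test. Its difference of -0.54 was -0.011 without Scr 1 and -1.08 without Scr 2.

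**Figure D3:**
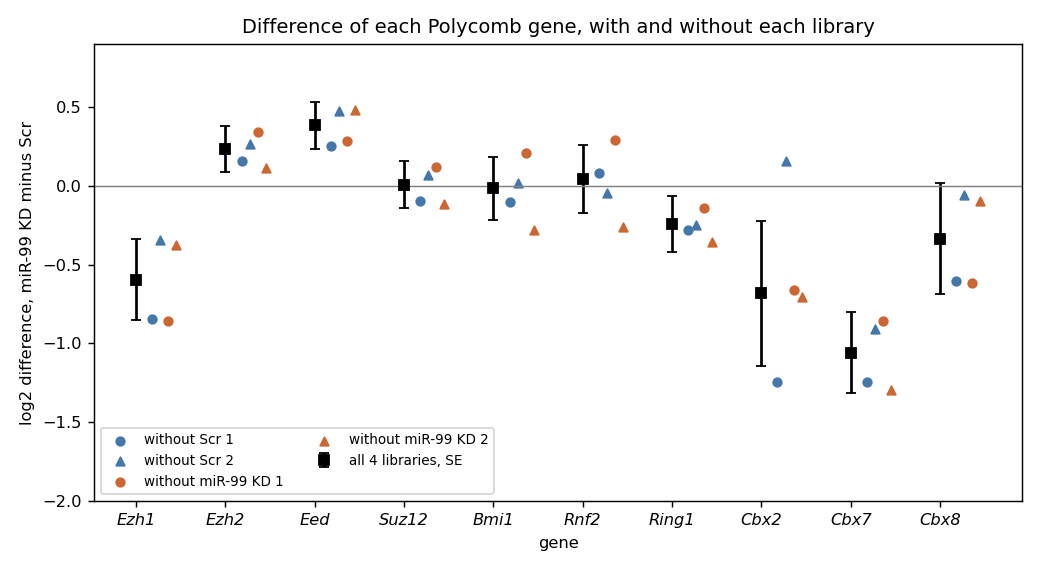
Log2 difference (the knockdown minus Scr) of each gene from edgeR with its standard error (black squares), and the same difference without each library (coloured symbols). Cbx7 runs from -1.30 to -0.86 and Ezh1 from -0.86 to -0.35, while Suz12, Bmi1, Rnf2 and Cbx2 change sign.

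Levels of different genes were compared as CPM per kilobase of exon. Eed and Ezh2 were highest, at medians over the 4 libraries of 67.4 and 61.7, and their ranges overlapped. Suz12 followed at 44.1, then Rnf2 at 32.4 and Bmi1 at 30.0, whose ranges overlapped too. Ring1 stood at 15.7, apart from Bmi1 above and Ezh1 below. In order of their Scr means, Ezh1 came next with a median of 8.35, then Cbx2 at 5.18 and Cbx7 at 5.46, each overlapping the next. Cbx8 was lowest at 1.88, with a range apart from that of Cbx7. The PRC2 core of Ezh2, Eed and Suz12 summed to 153 and 170 CPM per kilobase in Scr and 186 and 194 in the knockdown.

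Genes whose levels most resembled those of 2 members over the 4 libraries were picked by the smallest distance of their centred log2 CPM. For Cbx7 these were Ctso, Slc27a1 and Akr1c13, at root mean square distances of 0.044, 0.051 and 0.076 on the log2 scale, and 17 of 9515 genes lay within 0.1. For Ezh2 they included Usp25 and Smc4, at 0.011 and 0.014, and 1243 of 9515 genes lay within 0.1. The cut of 0.1 was the same for both members, though they moved by unlike amounts. Centred log2 CPM ran from -0.16 to 0.23 for Ezh2 and from -0.75 to 0.69 for Cbx7. The counts within 0.1 depend on that size, so they do not tell how common either pattern was.

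The other Polycomb genes comprised 8 further PRC2 subunits, 8 canonical and 13 variant PRC1 subunits and 7 enzymes or cofactors that remove Polycomb marks. Of these 36 genes 35 were tested, and edgeR and DESeq2 each called 0. At an unadjusted p under 0.05 edgeR counted 1 higher and 2 lower, where it counted 15.6% of all genes. Both knockdown libraries exceeded both Scr libraries in 9 genes and lay below both in 10, and 16 genes overlapped, where 24.5% and 26% of all genes did so and 50.5% did not overlap. The median log2 difference was 0.0045.

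Of the 8 further PRC2 subunits the 3 that did not overlap were all lower in the knockdown, as 26% of all genes were, and 5 overlapped. Epop, which joins PRC2 to elongin, stood at 24.7 and 27.5 CPM in Scr against 19.4 and 13.6 CPM in the knockdown, a log2 difference of -0.66 ± 0.25 with an edgeR p of 0.0437 and an adjusted p of 0.310. Phf1, a Polycomb-like subunit that recruits PRC2, stood at 11.4 and 9.72 CPM in Scr against 7.997 and 6.18 CPM in the knockdown. Its paralogs overlapped: Mtf2 stood at 178 ± 27 CPM in Scr and 158 ± 15 in the knockdown, and Phf19, at 4.24 and 8.72 CPM in Scr against 4.70 and 4.44 CPM in the knockdown, was again set by Scr 2.

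Of the 8 further canonical PRC1 subunits 3 were lower, 1 higher and 4 overlapped, beside the same 26% lower and 24.5% higher of all genes. Phc1, a polyhomeotic protein that links PRC1 complexes into clusters, stood at 33.1 and 27.6 CPM in Scr against 15.2 and 22.4 CPM in the knockdown, a log2 difference of -0.69 ± 0.26 with an edgeR p of 0.0441 and an adjusted p of 0.311. Cbx6, another reader, stood at 65.1 ± 4.7 and 49.3 ± 8.7 CPM. Scmh1 stood at 52.4 ± 1.4 and 47.6 ± 2.4 CPM. Scml2, the 1 counted as higher, was high in knockdown 2 alone, at 25 CPM against 12.6 to 13.5 CPM elsewhere.

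The variant PRC1 subunits, which assemble without a CBX reader, had a median log2 difference of 0.15. Of 13 genes 6 were higher in both knockdown libraries, 2 lower and 5 overlapped, where 24.5% of all genes were higher and 26% lower, and none reached an unadjusted p of 0.05 in edgeR. Rybp, which takes the place of CBX proteins in these complexes, stood at 9.53 and 8.69 CPM in Scr against 11.4 and 19.5 CPM in the knockdown, with an edgeR adjusted p of 0.347. Pcgf6 stood at 63.1 ± 4.3 and 78.5 ± 4.3 CPM, Pcgf1 at 7.86 ± 0.044 and 10.5 ± 0.40 CPM. Kdm2b, which brings variant PRC1 to CpG islands, stood at 65.1 ± 6.3 and 77.4 ± 7.6 CPM.

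Among the enzymes and cofactors that remove the marks, 2 of the 6 tested were higher, 2 lower and 2 overlapped, again beside 24.5% and 26% of all genes. Usp16, which takes ubiquitin off histone H2A, stood at 58.7 and 65.2 CPM in Scr against 75.9 and 90.9 CPM in the knockdown, a log2 difference of 0.43 ± 0.16 with an edgeR p of 0.0444 and an adjusted p of 0.312. Bap1, which removes the same ubiquitin, had the opposite sign, at 203 ± 28 and 158 ± 33 CPM with an adjusted p of 0.430. Its cofactors Asxl1 and Asxl2 stood at 110 ± 4.3 and 101 ± 0.15 CPM and at 77.0 ± 0.27 and 92.3 ± 18 CPM. Asxl3 was not tested, with 0 to 6 counts a library.

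**Figure D4:**
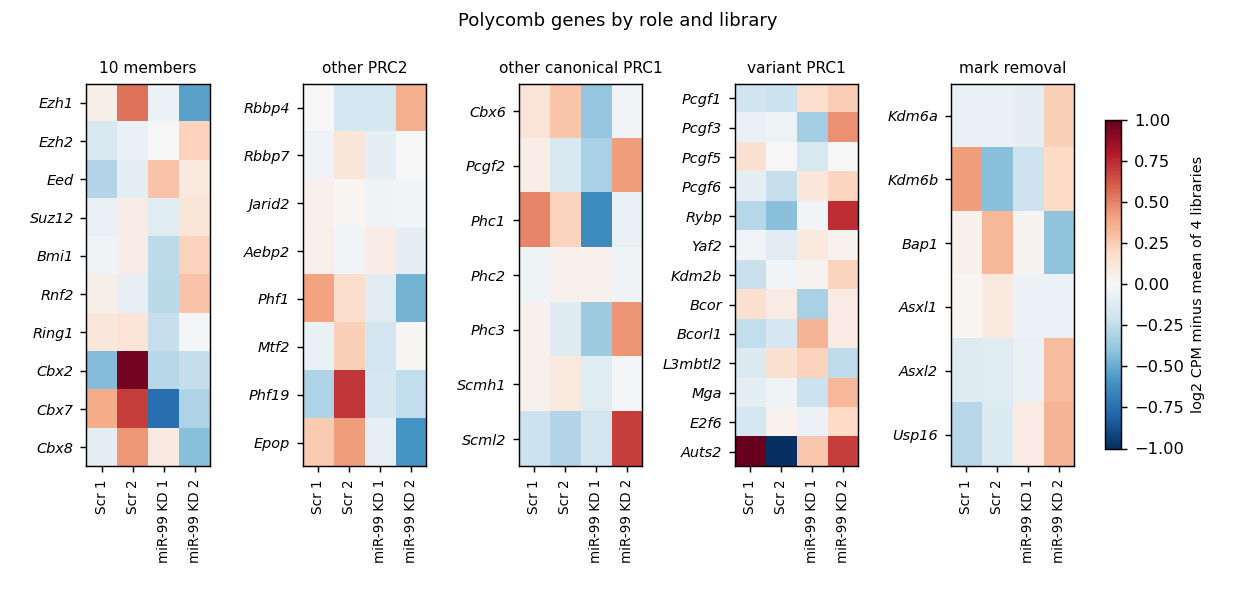
Log2 CPM minus the mean of the 4 libraries for tested Polycomb genes by role (panels), with genes in rows and libraries in columns. Values beyond 1 in size, in Auts2, take the end colour. Cbx7 is low in both knockdown libraries, Cbx2 is high in Scr 2 alone, and Rybp and Scml2 are highest in knockdown 2.

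Of the 7 known targets of Polycomb silencing in blood cells, 3 passed the filter on low counts. Cdkn2a, which encodes the cell cycle inhibitors p16 and ARF and is the classic target of BMI1, had 0 counts in all 4 libraries, which allows up to 0.0897 to 0.114 CPM per library at 3 counts. Lin28b, a fetal RNA-binding protein, also had 0 counts in each. Cdkn2b had 2 counts in knockdown 1 and 0 elsewhere, and Igf2bp3, another fetal RNA-binding protein, had 8 and 3 counts in Scr and 0 and 1 in the knockdown. Only 3 of the 7 targets, Hmga2, Ebf1 and Pax5, were tested.

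Hmga2, a chromatin protein of fetal stem cells, had 116 and 146 counts in Scr and 31 and 28 in the knockdown, or 3.47, 5.01, 1.18 and 1.05 CPM. Its log2 difference was -1.92 ± 0.44, with an edgeR adjusted p of 0.227 and a DESeq2 adjusted p of 0.0400. Ebf1, a B cell factor, had the opposite sign, at 5.29 and 3.02 CPM in Scr against 39.3 and 12.2 CPM in the knockdown, with an edgeR adjusted p of 0.227 and a DESeq2 adjusted p of 7.87e-04. It was highest in knockdown 1, where the B cell precursor markers were also highest, and it is itself one of those markers. Pax5, a further B cell factor, overlapped at 1.61 and 0.206 CPM in Scr against 2.08 and 1.09 CPM in the knockdown. With Cdkn2a at 0, no difference in its silencing was detectable at this depth.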

How the data were processed

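Per the labels' protocols, total RNA from sorted cells lysed in Trizol LS was amplified with SMARTer. The authors deposited whole-number read counts by Ensembl gene for each library. The submitters' processing notes name mm9 and the tools HTSeq, STAR, DESeq2 and Picard, without versions or strand setting. If strand was not used in counting, reads from genes antisense to Ezh2, Eed and Suz12, which share 92, 261 and 178 exon bases with them, cannot be told apart.

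Symbols came from a table of gene IDs and names and matched 44585 of 45232 rows. Exons and 3′ untranslated regions came from GENCODE M21 on GRCm38. As that build is not mm9, coordinates are given only for RefSeq sequences. Rows that name no gene stayed out of library sizes. Reads with no feature made up 8.31% to 13.8% of all reads in the files' own summaries. Totals pasted below the genes number some libraries differently from the labels, and the labels were used.

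The main test was edgeR 4.0.16 (quasi-likelihood, R 4.3.3), after filterByExpr, with TMM factors. Standard errors come from that fit. DESeq2 1.42.0, limma-voom (limma 3.58.1), other scalings and filters, a replicate block and leaving out each library were alternatives. DESeq2 left 2377 adjusted p without a value. Lengths are unions of exons in the basic annotation, and ratios had 0.5 added to each count. The functions were tested on simulated data. The members and lists were chosen with earlier results of these data known. Named genes are the members, the 4 or fewer lowest by p from every other Polycomb list, the 3 nearest in pattern to Ezh2 and to the member with the smallest p, and markers. Asxl3, Cdkn2a, Cdkn2b, Lin28b, Igf2bp3, Pcgf2 and Kdm6b were named after their values were seen. Some genes that the lists and the rule cover are not reported here.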

Additional observations from a re-analysis of the deposited data

How the results depend on the processing

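For the changes with the processing that follow, the cause was not tested. Over all 4 libraries edgeR called 0 members, 0 other Polycomb genes and 0 genes of the table. An unadjusted p under 0.05 counted 2 members and 5 other Polycomb genes, targets included, beside 15.6% of all genes. DESeq2 called 1 member, 2 other Polycomb genes and 887 genes, which was 5.79% of the 15320 tested. Without a filter edgeR called 1, 2 and 1064, the last being 4.18% of the 25446 genes then tested. The member called was Cbx7 in both. Without each library edgeR called 0 members, 0 to 1 other Polycomb genes and 0 to 1013 genes, the most without knockdown 1, with 437 without knockdown 2. A lone library is then assumed to vary like the other group.

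The counts that follow were chosen after seeing the data. Members at an unadjusted p under 0.05 numbered 2 in the main test, beside 15.6% of all genes. With DESeq2 they numbered 3 (Ezh1, Eed and Cbx7), beside 17.4%, and without a filter 3 (Ezh1, Cbx2 and Cbx7), beside 14%. They numbered 2 with library totals alone (Ezh1 and Cbx7), beside 15.7%, and 2 with limma-voom (Eed and Cbx7), beside 16.2%. The count was 1 with RLE scaling, beside 15.6%, and 1 with upper-quartile scaling, beside 15.5%. It was also 1 at 10 CPM in 2 libraries, beside 19.6%, and 1 with the replicate block, beside 13.4%. DESeq2 called 0 members with the replicate block, beside 2.55% of all genes. The deviations of libraries with the same number correlated at 0.057. This is 1 value, as with 2 libraries per group both pairs give the same correlation. The numbers were treated as names that pair nothing. Under the block edgeR called 0 genes.

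Log2 differences near 0 changed sign. That of Suz12, 0.01, was -0.021 with upper-quartile scaling, -0.079 with library totals alone, -0.019 without a filter, -0.022 at 10 CPM in 2 libraries and -0.12 to 0.12 without each library. That of Rnf2 was -0.045 with library totals alone and -0.26 to 0.29 without each library. Without each library Bmi1 ran from -0.28 to 0.21, Cbx2 from -1.25 to 0.16, Phf19 from -0.96 to 0.092 and Pax5 from -0.033 to 2.90. Cbx8 was not tested at 10 CPM in 2 libraries. The difference in the log2 ratio of Bmi1 to Pcgf2, -0.14, ran from -0.31 to 0.040 without each library. Differences of ratios do not depend on length.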
